A study of Mus musculus with 6 samples.

Results

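Genes of the endoplasmic reticulum (ER) chaperone machinery and of the ER stress response were examined in graft-reactive CD4+ T cells. The set holds 34 genes, taken from a list by name, of 28249 genes tested on the arrays. Array sequences without a gene symbol are counted as genes in that total. All 34 had at least 1 probe whose RefSeq accession maps to the gene. The probe with the highest mean signal stood for a gene, and 27 of the 34 were bright, meaning that their log2 intensity averaged 8 or more over the arrays (an intensity of 256). The other 7 were dim and are given as unscaled intensities. By role, 15 of the genes encode chaperones and folding enzymes, 6 belong to ER-associated degradation, 8 are sensors and factors of the stress response including the Atf4 branch, and 5 act in translocation and signal peptide cleavage.

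TEa cells are CD4+ T cells of C57BL/6 background with a transgenic T cell receptor. CD45.1+ B6.SJL mice were given CD45.2+ TEa cells on day -1 and a heart graft from Balb/c donors on day 0, and the TEa cells were recovered by sorting splenocytes on day 6. The Irf4 KO blockade group had Irf4-/- TEa cells in recipients injected on days 0, 3 and 5 with 200 µg of antibody to PD-L1 plus 200 µg of antibody to CTLA-4 (clone 9D9). The Irf4 KO IgG group had Irf4-/- TEa cells in recipients given 400 µg of rat IgG on the same days. The WT IgG group had WT TEa cells in recipients labelled as treated with rat IgG, without a stated dose. Every recipient therefore carried a graft and its own CD45.1+ cells. Each of the 3 groups has 2 single-colour arrays, described by the submitters as independent experiments without saying whether animals were pooled, and array 2 is the one labelled as the repeat. With 2 arrays per group, the number of arrays limits the precision of every value.

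Secreted and membrane proteins enter the ER through the Sec61 channel, lose their signal peptide and fold with the help of chaperones, disulphide isomerases and lectins. When unfolded proteins accumulate, the sensors Ern1 (IRE1), Eif2ak3 (PERK) and Atf6 act through spliced Xbp1, through Atf4 and through cleaved Atf6, which raise chaperone and degradation genes. Activated T cells enlarge this machinery as they make cytokines and surface receptors.

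The arrays differed in their weak probes. Probes called well above background by the scanner software made up 34.5% to 39.7% with blockade, 66.0% to 75.2% with IgG in Irf4 KO cells and 37.3% to 40.5% in WT cells. Levels of bright genes are therefore given after quantile normalisation among the 8582 bright genes, so each change is relative to the other bright genes. Scaling all 28249 genes by the 75th percentile of each array instead shifted the bright genes as a whole. Their median log2 fold change was then -1.05 for Irf4 KO IgG over WT cells, 1.09 for blockade over Irf4 KO IgG cells, and 0.05 for blockade over WT cells. On that scale 25 of the 34 members were lower in Irf4 KO IgG than in WT cells (58.9% of all genes passed in either direction), 23 were higher and 1 lower in blockade than in Irf4 KO IgG cells (58.8%), and 0 differed between blockade and WT (0 of 28249 genes by limma). The members' medians on that scale were -1.21, 1.15 and -0.07. Irf4 itself was dimmer on both WT arrays than on each of the 4 arrays of cells labelled Irf4 KO, so group names here follow the labels. Its stronger probe read 2071 and 1703 with blockade, 2128 and 3073 with IgG in cells labelled Irf4 KO, and 673 and 1068 in WT cells. The files do not place this probe inside or outside the deletion.

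The 11 CD4 T cell markers checked were well above background on all 6 arrays. Several marker lists for other cell types read higher in the Irf4 KO IgG group. The summed intensity of 9 B cell markers was 386 to 396 with blockade, 1136 to 6011 with IgG in Irf4 KO cells and 221 to 241 in WT cells, with 2 to 3, 8 to 9 and 2 to 3 of the 9 well above background. The 5 plasma cell markers, from cells rich in ER, summed to 159 to 227 with blockade, 477 to 1938 with IgG and 213 to 223 in WT cells. Of those, Tnfrsf17 was at background on all 6 arrays, and Sdc1 was above it only on Irf4 KO IgG array 2. For 5 genes of class II presentation the sums were 427 to 445, 4030 to 20277 and 372 to 445, and for 10 monocyte, macrophage and neutrophil markers 4440 to 7254, 8237 to 68032 and 4341 to 5248, in the same order of groups. Sums for 6 dendritic cell markers were 4777 to 7384, 13089 to 23943 and 7574 to 13943, and for 6 CD8 T and NK cell markers 738 to 1080, 967 to 1582 and 874 to 1050. Siglech made up most of the dendritic cell sums, with 7367 and 4738, then 23793 and 12858, against 7552 and 13923 in WT cells. Of these 6 markers, 1 was well above background on each blockade and WT array, and 4 to 5 on the Irf4 KO IgG arrays. Over all probes this share was 34.5% to 39.7% with blockade, 66.0% to 75.2% with IgG and 37.3% to 40.5% in WT cells. The part of this general difference in the marker counts was not tested. The 8 erythroid and platelet markers with a probe summed to 6959 to 11310 with blockade, 1657 to 54799 with IgG and 189 to 765 in WT cells. The part of these cells in the levels below was not tested. The 27 bright genes of the ER set differed between the Irf4 KO IgG arrays by a median of 0.07 log2, against 0.19 over all bright genes. The same medians were 0.14 against 0.14 with blockade and 0.17 against 0.17 in WT cells. Such a gap within a group does not measure how far other cells shift the difference between groups. In sorted bulk samples, fewer cells of a type and less RNA per cell cannot be told apart.

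Between Irf4 KO IgG and WT cells, the large ER chaperones did not pass the test, and 1 gene of the set, Sdf2l1, fell. That is 1 of 27 bright members, or 3.70%, where 1.86% of all 8582 bright genes passed (1.14% higher and 0.722% lower; limma, Benjamini-Hochberg adjusted p, threshold 0.05). The median log2 fold change of the 27 was -0.09, against -0.02 over all bright genes, with a range of -0.83 to 0.91. For 21 of the 27 the 95% interval of the log2 fold change lay within 1 of 0, which held for 80.2% of all bright genes. An unadjusted p under 0.05 was found for 8 of the 27, and for 23.4% of all bright genes.

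**Figure D1:**
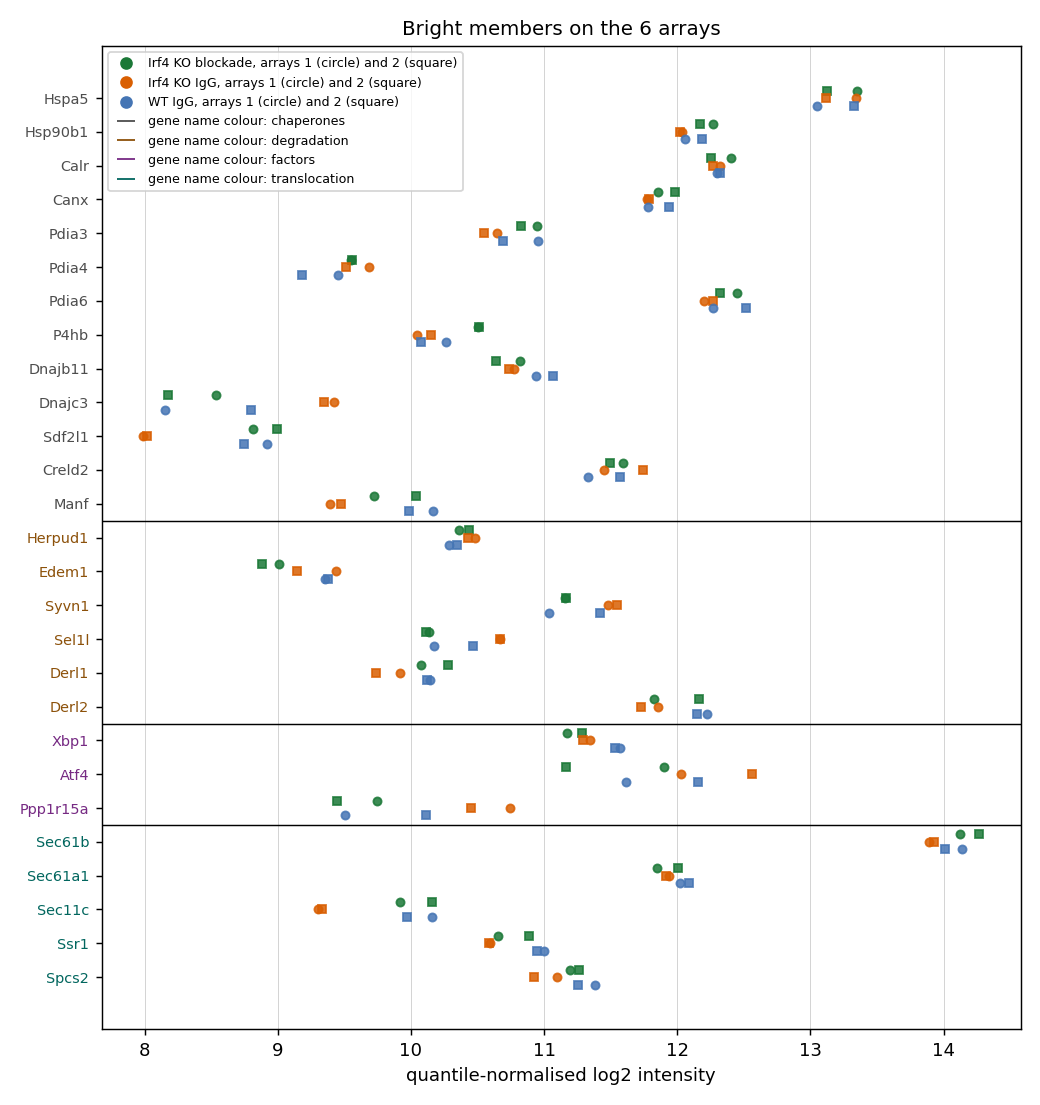
Quantile-normalised log2 intensity (x axis) of the 27 bright members (y axis, grouped by role) on each of the 6 arrays, with green for Irf4 KO blockade, orange for Irf4 KO IgG and blue for WT IgG. Most genes show the 3 groups within a narrow band, while Sdf2l1 and Sec11c have both Irf4 KO IgG arrays apart at the low side and Dnajc3 and Ppp1r15a at the high side.

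Hspa5 encodes BiP, the central Hsp70 chaperone of the ER. Its log2 level was 13.35 and 13.13 with blockade, 13.34 and 13.12 with IgG in Irf4 KO cells, and 13.05 and 13.33 in WT cells. The 3 groups overlapped throughout. Irf4 KO IgG minus WT gave a log2 fold change of 0.04 (95% interval -0.37 to 0.44, limma adjusted p = 0.907). As plain differences of group means on normalised single probes, all 3 bright probes of the gene lay between -0.06 and 0.03.

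Hsp90b1 encodes Grp94, the Hsp90 of the ER. It read 12.27 and 12.17 with blockade, 12.04 and 12.02 with IgG in Irf4 KO cells and 12.06 and 12.19 in WT cells. The Irf4 KO IgG arrays were the lowest, but by only -0.09 against WT (interval -0.38 to 0.19, limma adjusted p = 0.660). Calr and Canx encode the lectin chaperones calreticulin and calnexin, which hold glycoproteins during folding. Their log2 fold changes between Irf4 KO IgG and WT were -0.02 (interval -0.30 to 0.27) and -0.08 (interval -0.38 to 0.22), neither passing the test.

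The disulphide isomerases, which form and rearrange disulphide bonds, differed little between the groups. Pdia3, the partner of the lectin chaperones, was at -0.22, Pdia6 at -0.16 and P4hb, the classical protein disulphide isomerase, at -0.07 between Irf4 KO IgG and WT. Pdia4 was at 0.28. None of the 4 passed, and their intervals together ran from -0.56 to 0.63. P4hb stood out in another way: its log2 level was 10.51 and 10.51 with blockade, 10.04 and 10.15 with IgG in Irf4 KO cells, and 10.27 and 10.08 in WT cells. Both blockade arrays were above the other 4, by 0.41 against Irf4 KO IgG (interval 0.11 to 0.72, limma adjusted p = 0.110) and 0.34 against WT (interval 0.03 to 0.64, limma adjusted p = 0.225), and neither passed.

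Sdf2l1, an ER protein that acts in a complex with BiP and its J-proteins, had the clearest difference of the set. Its unscaled intensities were 411 and 353 with blockade, 270 and 424 with IgG in Irf4 KO cells, and 412 and 501 in WT cells. After normalisation the log2 level was 8.82 and 9.00 with blockade, 7.99 and 8.02 with IgG in Irf4 KO cells, and 8.92 and 8.75 in WT cells. Both Irf4 KO IgG arrays lay below the other 4 arrays by more than the spread within any group. Irf4 KO IgG cells had a level 1.78-fold lower than WT cells, a log2 fold change of -0.83 (SE 0.13) with an adjusted p of 0.0471 by limma. The blockade cells had a level 1.87-fold higher than Irf4 KO IgG cells (0.90, SE 0.13), at an adjusted p of 0.0544 by limma, which missed the threshold. Blockade minus WT was 0.07 (interval -0.24 to 0.39). The fall in Irf4 KO IgG cells kept its direction in all 16 other settings that could test the gene and passed in 4 of them, with adjusted p from 0.00811 to 0.209. The call ended without any 1 of the 6 arrays (limma adjusted p from 0.0857 to 0.209). A single probe measures this gene, and the same holds for Dnajc3, Ppp1r15a and Sec11c below. In all, 18 of the 34 members have 1 probe.

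Manf, a secreted ER stress protein that binds BiP, also had both Irf4 KO IgG arrays lowest, without passing. It read 9.72 and 10.04 with blockade, 9.39 and 9.48 with IgG in Irf4 KO cells, and 10.17 and 9.99 in WT cells. The difference between Irf4 KO IgG and WT was -0.64 (SE 0.15, limma adjusted p = 0.0935) at this probe and -0.47 at the other bright probe. Creld2, an ER stress-induced protein of the folding machinery, was at 0.15, with overlapping groups.

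Of the J-proteins, which drive the BiP cycle, Dnajc3 and Dnajb11 were bright, and neither passed. Dnajc3 encodes p58IPK, which is also known as an inhibitor of the eIF2α kinases. Its log2 level was 8.53 and 8.18 with blockade, 9.42 and 9.35 with IgG in Irf4 KO cells, and 8.15 and 8.80 in WT cells. Both Irf4 KO IgG arrays were above the other 4. Irf4 KO IgG minus WT was 0.91 (SE 0.24, limma adjusted p = 0.117) and blockade minus Irf4 KO IgG was -1.03 (SE 0.24, limma adjusted p = 0.0795), so neither passed. Dnajb11 (ERdj3) was at -0.25 between Irf4 KO IgG and WT, and its blockade arrays, at 10.82 and 10.64, lay below the WT arrays at 10.94 and 11.07 (-0.27, limma adjusted p = 0.305).

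**Figure D2:**
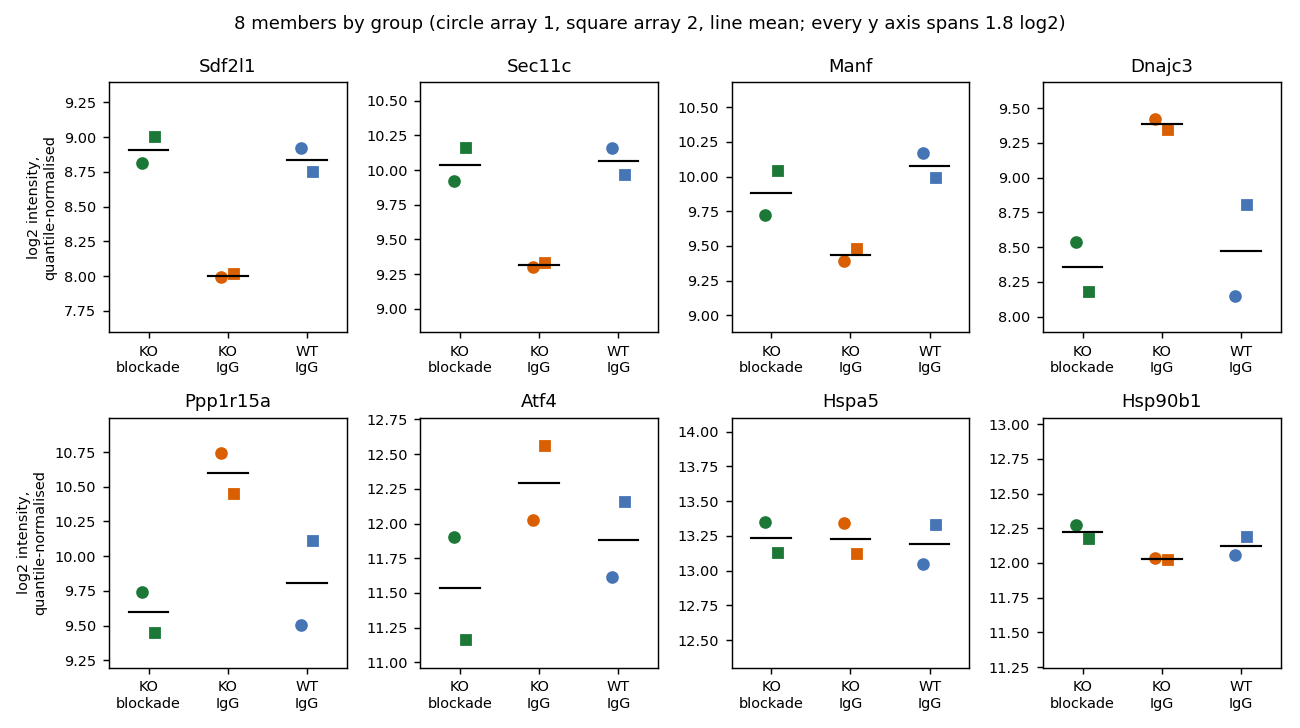
Quantile-normalised log2 intensity of 8 members by group, with a circle for array 1, a square for array 2, a line for the mean, and a span of 1.8 log2 on every y axis. Sdf2l1, Sec11c and Manf have both Irf4 KO IgG arrays lowest, Dnajc3 and Ppp1r15a have them highest, Atf4 varies within each group, and Hspa5 and Hsp90b1 are nearly level.

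The best known element through which Atf6 and spliced Xbp1 act is the ER stress response element, ERSE, spelled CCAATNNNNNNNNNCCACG. It was searched on both strands of the RefSeq promoters (build GRCm38.p6), which span 250 bases before to 50 after each start, together with the second form ERSE-II (ATTGG, any 1 base, then CCACG) and the core TGACGTG. Of the 34 members, 28 had a promoter in the table. ERSE was present in 8 of the 28 (28.6%) against 37 of 27025 genes (0.137%), and the 8 are Hspa5, Hsp90b1, Calr, Canx, Pdia6, Dnajc3, Creld2 and Syvn1. ERSE-II was present in 2 members, Dnajb11 and Herpud1 (7.14%, against 0.0444% of genes), and TGACGTG in 1, Hspa5 (3.57%, against 2.22%). Each motif was counted on its own, a promoter may hold more than 1, and ERSE and ERSE-II share the letters CCACG. By role, 7 of 13 chaperone genes had an ERSE, against 1 of 5 degradation genes, 0 of 7 sensors and factors and 0 of 3 translocation genes. The members were chosen as genes of ER folding and stress, the response that names the element, so their higher share is not an independent finding. A match describes these letters and is not shown to be a site in these cells. Shown here are 3 chaperone genes with an ERSE whose level hardly differed between groups (Hspa5, Hsp90b1, Pdia6), the ERSE gene that was highest in Irf4 KO IgG cells (Dnajc3), and Sdf2l1, where none of the 3 motifs was found in this window. Capitals mark the motifs and each is written 5′ to 3′ along the gene. They lie at chr2:34771840-34772139 on the plus strand (Hspa5), chr10:86705395-86705694 on the minus strand (Hsp90b1), chr12:17266339-17266638 on the plus strand (Pdia6), chr14:118937682-118937981 on the plus strand (Dnajc3) and chr16:17132334-17132633 on the minus strand (Sdf2l1).
Hspa5: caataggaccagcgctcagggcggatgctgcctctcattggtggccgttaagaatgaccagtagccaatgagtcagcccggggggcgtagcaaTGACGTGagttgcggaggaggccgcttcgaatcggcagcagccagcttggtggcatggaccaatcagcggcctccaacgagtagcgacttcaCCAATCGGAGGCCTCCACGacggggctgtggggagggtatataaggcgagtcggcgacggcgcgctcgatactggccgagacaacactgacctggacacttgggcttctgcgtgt
Hsp90b1: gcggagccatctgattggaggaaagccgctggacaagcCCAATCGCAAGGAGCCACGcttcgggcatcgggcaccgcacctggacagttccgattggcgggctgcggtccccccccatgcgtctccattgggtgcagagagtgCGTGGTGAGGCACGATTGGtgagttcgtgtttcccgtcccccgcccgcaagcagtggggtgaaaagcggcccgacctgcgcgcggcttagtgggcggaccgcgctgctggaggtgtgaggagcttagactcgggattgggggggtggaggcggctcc
Pdia6: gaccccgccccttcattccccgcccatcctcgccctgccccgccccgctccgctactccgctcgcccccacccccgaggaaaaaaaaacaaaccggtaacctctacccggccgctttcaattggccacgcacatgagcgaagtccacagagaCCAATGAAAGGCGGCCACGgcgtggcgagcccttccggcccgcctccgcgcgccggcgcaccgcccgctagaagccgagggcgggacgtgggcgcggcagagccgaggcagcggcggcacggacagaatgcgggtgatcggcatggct
Dnajc3: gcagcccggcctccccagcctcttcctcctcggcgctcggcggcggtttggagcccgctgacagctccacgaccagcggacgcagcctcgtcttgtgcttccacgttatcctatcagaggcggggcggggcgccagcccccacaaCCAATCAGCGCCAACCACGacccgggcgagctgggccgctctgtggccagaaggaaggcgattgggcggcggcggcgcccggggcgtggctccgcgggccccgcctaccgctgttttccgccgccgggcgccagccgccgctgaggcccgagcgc
Sdf2l1: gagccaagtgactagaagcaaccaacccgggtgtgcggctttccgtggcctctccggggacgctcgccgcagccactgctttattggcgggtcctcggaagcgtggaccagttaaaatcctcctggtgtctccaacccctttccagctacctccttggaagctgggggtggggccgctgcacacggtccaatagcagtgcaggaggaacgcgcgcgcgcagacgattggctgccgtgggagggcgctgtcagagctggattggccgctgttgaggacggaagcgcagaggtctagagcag

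All 8 ERSE genes were bright. Between Irf4 KO IgG and WT their log2 fold changes had a median of 0.01 and ran from -0.16 to 0.91, the highest being Dnajc3. The 15 bright members with a promoter and no ERSE had a median of -0.17 and ran from -0.83 to 0.79. They include Dnajb11 and Herpud1, which hold ERSE-II. None of the 8 passed the test, and no test of a difference between these genes was run. The same 8 genes ran from -1.03 to 0.19 between blockade and Irf4 KO IgG, and from -0.12 to 0.10 between blockade and WT.

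The 6 genes of ER-associated degradation, which send misfolded proteins back to the cytosol for the proteasome, were all bright, and 0 of 6 passed between Irf4 KO IgG and WT by limma, with 2 at an unadjusted p under 0.05. Syvn1 (Hrd1), the ubiquitin ligase, and Sel1l, its adaptor, form the core complex. Sel1l read 10.14 and 10.11 with blockade, 10.67 and 10.67 with IgG in Irf4 KO cells, and 10.17 and 10.46 in WT cells. Both Irf4 KO IgG arrays were above the other 4, at 0.35 against WT (SE 0.14, limma adjusted p = 0.201), and blockade minus Irf4 KO IgG was -0.54 (SE 0.14, limma adjusted p = 0.0852). Syvn1 had the same order, with 11.16 and 11.17, then 11.48 and 11.55, against 11.04 and 11.42 in WT cells, a difference of 0.29 between Irf4 KO IgG and WT that did not pass. Derl1 and Derl2, derlins of the retrotranslocation machinery, were lower in Irf4 KO IgG than in WT cells by log2 values of -0.30 and -0.39, with adjusted p of 0.248 and 0.198 by limma. Herpud1, a stress-induced scaffold of the complex, was at 0.14. Edem1, a lectin that extracts misfolded glycoproteins, was at -0.07 at its brighter probe but -0.60 at its other bright probe.

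Of the 8 sensors and factors, 3 were bright. Xbp1, the factor activated by Ern1, read 11.18 and 11.28 with blockade, 11.35 and 11.29 with IgG in Irf4 KO cells, and 11.57 and 11.53 in WT cells. Both groups labelled Irf4 KO were below both WT arrays. The log2 fold changes against WT were -0.32 with blockade (interval -0.60 to -0.04, limma adjusted p = 0.212) and -0.23 with IgG (interval -0.51 to 0.04, limma adjusted p = 0.279), and neither passed. The array measures total Xbp1 transcript, and splicing was not analysed here.

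Atf4, the factor translated when eIF2α is phosphorylated, differed widely between the arrays of each group. It read 11.90 and 11.16 with blockade, 12.03 and 12.56 with IgG in Irf4 KO cells, and 11.61 and 12.16 in WT cells. Its 95% interval between Irf4 KO IgG and WT, -0.41 to 1.23, was the widest of the 27. Ppp1r15a (GADD34), an Atf4 target that directs dephosphorylation of eIF2α, read 9.74 and 9.45 with blockade, 10.75 and 10.45 with IgG in Irf4 KO cells, and 9.50 and 10.11 in WT cells. Both Irf4 KO IgG arrays were the highest, at 0.79 against WT (SE 0.24, limma adjusted p = 0.144), and blockade minus Irf4 KO IgG was -1.00 (SE 0.24, limma adjusted p = 0.0813). Neither difference passed.

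The remaining factors and sensors were dim, as were Dnajb9 (ERdj4) and Hyou1 (Grp170, an exchange factor for BiP). Weak probes read brighter on the Irf4 KO IgG arrays in general, with array medians of 6.58 and 5.14 with blockade, 47.2 and 76.9 with IgG in Irf4 KO cells, and 7.19 and 9.05 in WT cells. Atf6 had intensities of 69.8 and 45.3 with blockade, 197 and 502 with IgG in Irf4 KO cells, and 158 and 254 in WT cells. Both blockade arrays were thus below all 4 others. With the minimum lowered to 7, which admits Atf6, Dnajb9, Ddit3 and Trib3, Atf6 had a log2 fold change of -1.52 between blockade and WT (SE 0.30, limma adjusted p = 0.110) and -1.60 between blockade and Irf4 KO IgG (SE 0.30, limma adjusted p = 0.0746). Neither passed, and at this minimum 0.629% and 0.591% of 10656 genes did.

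Trib3, a pseudokinase gene induced by Atf4 and Ddit3, had the lowest value of the 4 dim genes fitted between Irf4 KO IgG and WT. Its intensities were 122 and 101 with blockade, 127 and 142 with IgG in Irf4 KO cells, and 171 and 252 in WT cells. Both WT arrays were the brightest, an order found for 0.753% of the 19667 dim genes and looked up after the values were seen. With the minimum of 7 its log2 fold change was -1.44 between Irf4 KO IgG and WT (SE 0.26, limma adjusted p = 0.0596), where 2.52% of genes passed. Ddit3 (CHOP), a death-linked factor of the same branch, had 201 and 117 with blockade, 261 and 615 with IgG and 120 and 165 in WT cells (0.95 between Irf4 KO IgG and WT, SE 0.27, limma adjusted p = 0.122). Neither Trib3 nor Ddit3 passed.

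Dnajb9 had 125 and 132 with blockade, 224 and 353 with IgG in Irf4 KO cells, and 213 and 275 in WT cells. Both blockade arrays were the lowest (-0.56 against WT with the minimum of 7, SE 0.21, limma adjusted p = 0.256). Ern1, the IRE1 sensor, had 27.3 and 16.8 with blockade, 62.3 and 126 with IgG, and 46.1 and 60.4 in WT cells, and blockade array 2 was not well above background. Eif2ak3, the PERK sensor, had 76.7 and 50.1, then 115 and 201, against 94.97 and 157 in WT cells. Hyou1 was near the detection limit, at 19.6 and 19.3 with blockade (1 of 2 well above background), 75.1 and 120 with IgG, and 20.9 and 38.8 in WT cells (1 of 2). On unscaled values both blockade arrays were below the other 4 for 6 of the 7 dim members, all but Ddit3, and for 27.3% of all dim genes. The blockade arrays also had the lowest array medians, and the part of overall array brightness in this order was not tested.

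**Figure D3:**
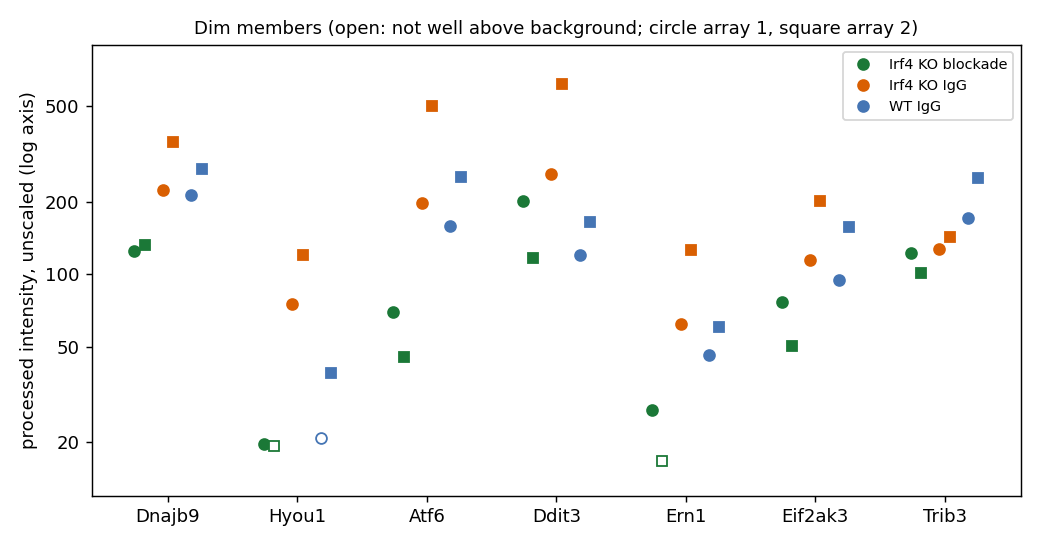
Unscaled processed intensity (log axis) of the 7 dim members on the 6 arrays, with open symbols where a spot was not well above background. Both blockade arrays are lowest for all but Ddit3, and the WT arrays are highest for Trib3.

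The 5 genes of translocation and signal peptide cleavage all had negative log2 fold changes between Irf4 KO IgG and WT, none passing. Their median was -0.30, against -0.02 over all bright genes. Sec11c, a catalytic subunit of the signal peptidase, had the largest difference. It read 9.92 and 10.16 with blockade, 9.30 and 9.33 with IgG in Irf4 KO cells, and 10.16 and 9.97 in WT cells. Both Irf4 KO IgG arrays lay below the other 4, by -0.75 against WT (SE 0.14, limma adjusted p = 0.0636), and blockade minus Irf4 KO IgG was 0.72 (SE 0.14, limma adjusted p = 0.0709). Ssr1, a subunit of the translocon-associated protein complex, was at -0.38 (interval -0.69 to -0.07, limma adjusted p = 0.161), and Spcs2, another subunit of the signal peptidase, at -0.30. Sec61b and Sec61a1, subunits of the channel, were at -0.17 and -0.13. With the mean of its probes in place of the brightest, Sec61a1 was at 0.88, without passing. Sec61b was the brightest gene of the set, with intensities of 17734 and 16689 with blockade, 12495 and 19315 with IgG, and 17897 and 19998 in WT cells.

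On the bright-gene scale, both Irf4 KO IgG arrays lay below the other 4 arrays for 9 of the 27 bright members, against 18.7% of all bright genes. These were 4 of 5 translocation genes (Sec61b, Sec11c, Ssr1 and Spcs2), 4 of 13 chaperone genes (Hsp90b1, Pdia3, Sdf2l1 and Manf) and Derl1. Both arrays lay above the other 4 for Dnajc3, Syvn1, Sel1l and Ppp1r15a, which is 4 of 27 against 13.8% of all bright genes. Counted against WT alone, the groups did not overlap for 13 members on the low side (29.2% of all bright genes) and 6 on the high side (23.1%). Of these genes Sdf2l1 alone passed the test.

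Blockade cells set against Irf4 KO IgG cells had 0 of 27 members past the threshold by limma, with 8 at an unadjusted p under 0.05. Over all bright genes 0.326% passed (0.186% higher and 0.14% lower) and 28.5% had an unadjusted p under 0.05. The median of the 27 was 0.03, the same as the 0.03 over all bright genes, and 22 intervals lay within 1 of 0, against 77.7% of all bright genes. Groups did not overlap for 12 members on the high side (34% of all bright genes) and 7 on the low side (28.9%). By role the median was 0.14 for chaperones, 0.22 for translocation, -0.20 for degradation and -0.76 for the 3 bright factors. The genes with the highest values were Sdf2l1 (0.90), Sec11c (0.72), Manf (0.45) and P4hb (0.41), and those with the lowest Dnajc3 (-1.03), Ppp1r15a (-1.00), Atf4 (-0.76) and Sel1l (-0.54). This comparison shares the Irf4 KO IgG arrays with the one against WT, so opposite signs for a gene in the 2 comparisons are not independent of each other.

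**Figure D4:**
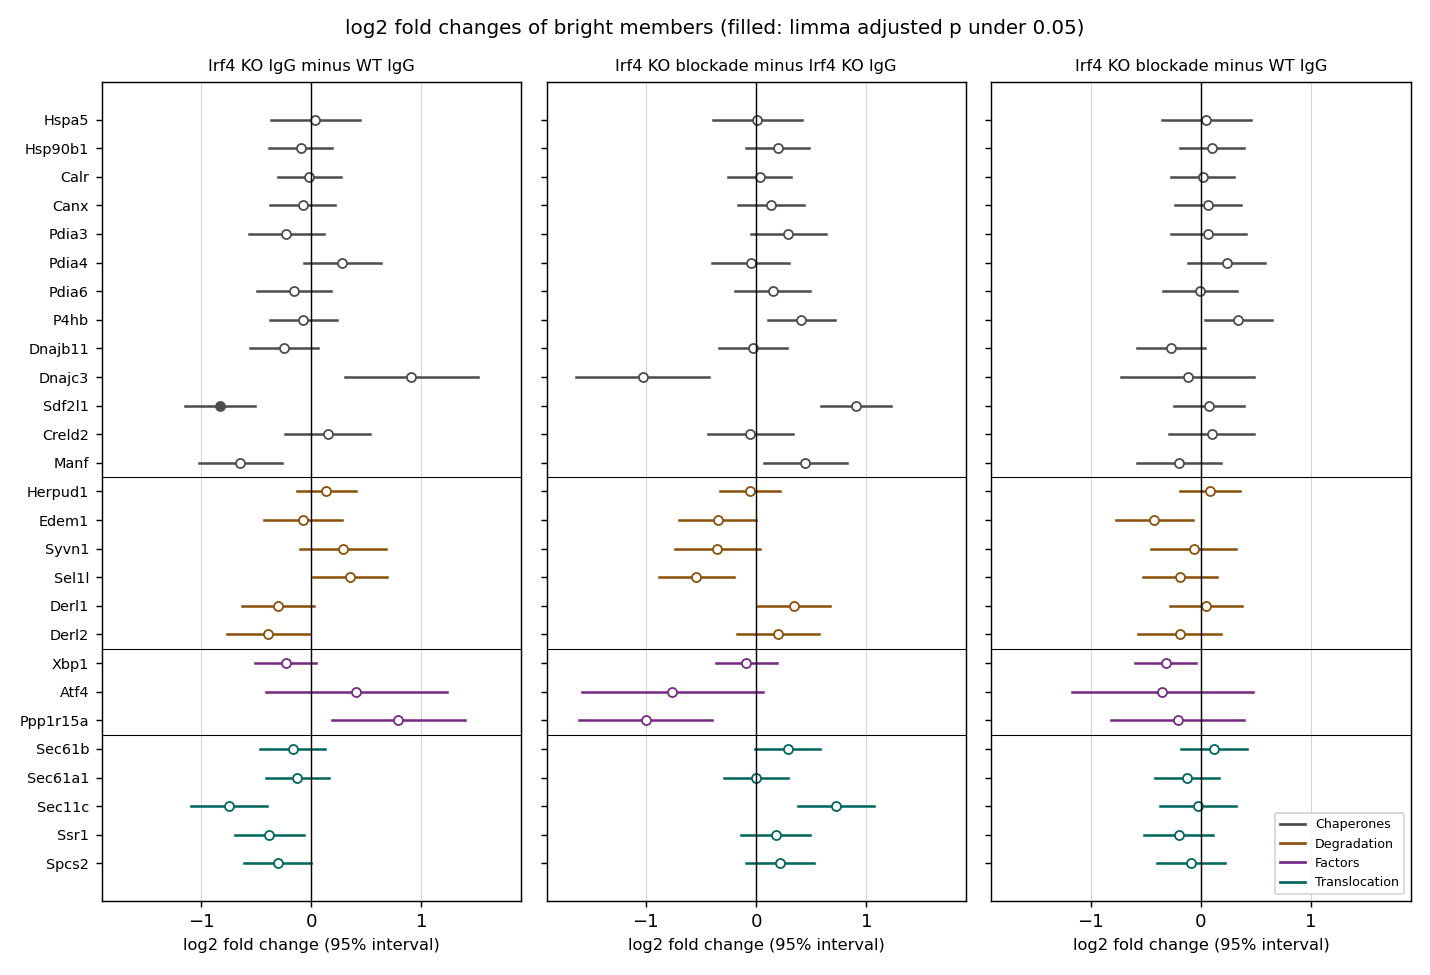
log2 fold change (x axis, dot) with its 95% interval (line) for the 27 bright members in 3 comparisons, filled where the limma adjusted p is under 0.05. Sdf2l1 between Irf4 KO IgG and WT is the single filled dot, and in the comparison of blockade with WT every dot lies between -0.42 and 0.34.

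The members' values spanned the narrowest range between blockade and WT cells. By limma 0 of 27 members passed, against 1.11% of all bright genes (0.629% higher and 0.478% lower), and 3 of 27 had an unadjusted p under 0.05, against 19.2%. The 27 log2 fold changes ran from -0.42 (Edem1) to 0.34 (P4hb), with a median of -0.02 against 0.00 over all bright genes. For 26 of the 27 the 95% interval lay within 1 of 0, against 82.2% of all bright genes, the exception being Atf4 (-1.17 to 0.47). Groups did not overlap for Pdia4, P4hb and Herpud1 on the high side (3 of 27, against 27.7% of all bright genes). On the low side they did not overlap for Dnajb11, Edem1, Sel1l, Xbp1, Sec61a1 and Ssr1 (6 of 27, against 27.1%). Of the 4 dim genes that could be fitted with the lower minimum, Atf6 had the lowest value in this comparison, as given above.

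**Figure D5:**
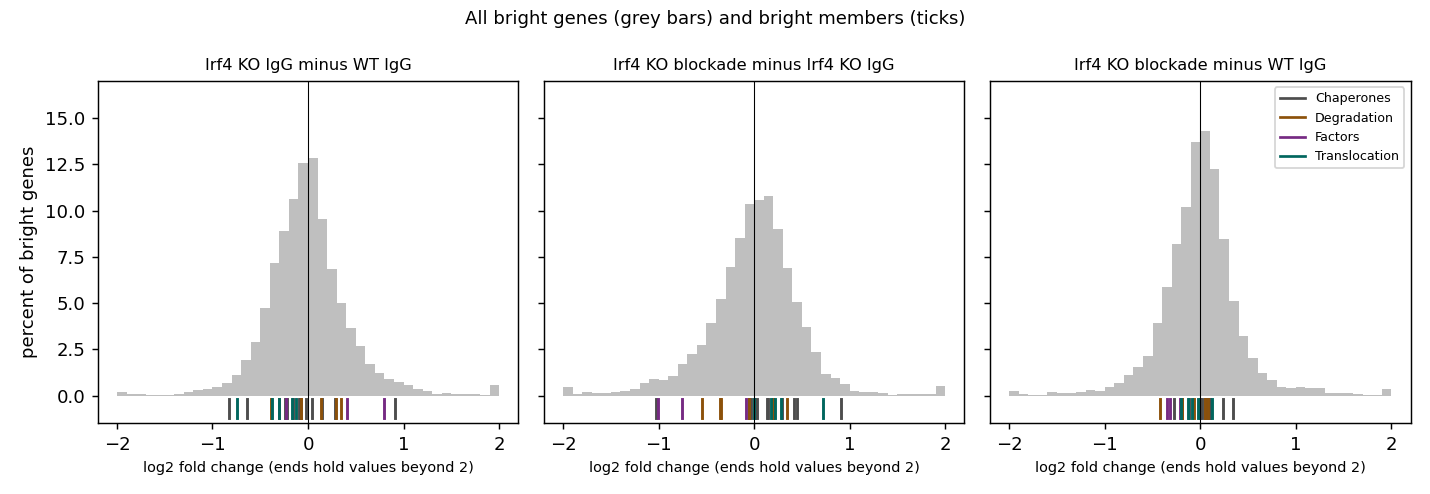
Distribution of log2 fold changes over the 8582 bright genes (grey bars, percent of genes per 0.1 of log2) with the 27 bright members as coloured ticks below, in 3 comparisons. The ticks run from -0.83 to 0.91, -1.03 to 0.90 and -0.42 to 0.34. Between Irf4 KO IgG and WT, Sdf2l1 is the lowest tick and Dnajc3 the highest. These and other members lie outside the interquartile range of all bright genes (-0.24 to 0.20). The interquartile range of the members was -0.27 to 0.14.

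Other genes of the same pathways gave no further calls. The 8 further lists hold 169 genes, of which 127 were bright, and 0 passed in any of the 3 comparisons by limma, against 1.86%, 0.326% and 1.11% of all bright genes. Among 17 other oxidoreductases and prolyl isomerases, 10 were bright. Prdx4, a peroxiredoxin of the ER, read 9.77 and 10.06 with blockade, 8.94 and 9.07 with IgG in Irf4 KO cells and 9.20 and 9.32 in WT cells (0.91 between blockade and Irf4 KO IgG, limma adjusted p = 0.0618). Txndc5, another disulphide isomerase, was below WT in both groups labelled Irf4 KO, at -0.59 with blockade (limma adjusted p = 0.0867) and -0.58 with IgG (0.0720), and none of these passed.

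For secretion, 28 of 34 other translocation and vesicle genes were bright, with a median of -0.16 between Irf4 KO IgG and WT. Spcs3, a further signal peptidase subunit, read 10.01 and 10.04 with blockade, 9.78 and 9.69 with IgG in Irf4 KO cells and 10.41 and 10.34 in WT cells. Its Irf4 KO IgG arrays were the lowest (-0.64 against WT, SE 0.11, limma adjusted p = 0.0557), without passing. Sec11c and Spcs2 had the same order, which was found for 18.7% of all bright genes. The subunits Sec11a and Spcs1 of this list are not described. Sar1b, a COPII GTPase, was at -0.57 (limma adjusted p = 0.110). Of 18 bright glycosylation genes out of 20, Ostc, an oligosaccharyltransferase subunit, was at -0.50 between Irf4 KO IgG and WT (limma adjusted p = 0.0796) and 0.56 between blockade and Irf4 KO IgG (limma adjusted p = 0.0709). Uggt1, the folding sensor that reglucosylates glycoproteins, was at -0.52 with IgG and -0.63 with blockade against WT (limma adjusted p of 0.119 and 0.111).

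Among 28 other genes of the integrated stress response and Atf4 targets, 17 were bright, with medians of -0.10 between Irf4 KO IgG and WT and 0.20 between blockade and Irf4 KO IgG. Mthfd2, a mitochondrial one-carbon enzyme, was at -1.19 between Irf4 KO IgG and WT (SE 0.21, limma adjusted p = 0.0595) and Pck2, mitochondrial PEP carboxykinase, at 1.12 (SE 0.20, limma adjusted p = 0.0607). Neither passed, and they are the 2 genes of this list with the smallest p. The serine synthesis enzymes Psat1 and Phgdh were at 1.06 and 0.65 between blockade and Irf4 KO IgG (limma adjusted p of 0.0520 and 0.0721), and none of these passed. Of the other degradation genes, 16 of 21 were bright, and Ufd1, a cofactor of the Vcp segregase, was at -0.45 between Irf4 KO IgG and WT. Among 11 bright genes of other sensors and effectors out of 16, Bloc1s1, a known target of IRE1-dependent decay, was at -0.99 (limma adjusted p = 0.0898). The 8 bright ER co-chaperones out of 10 had a median of -0.10, with Dnajc10 at 0.39. Cytosolic and mitochondrial chaperones, 19 bright of 23, had medians of 0.19 between Irf4 KO IgG and WT and 0.34 between blockade and WT, with Cct3, a subunit of the TRiC chaperonin, at 0.55 and 0.50 (limma adjusted p of 0.0789 and 0.116).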

How the data were processed

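Cy3-labelled cRNA was made by the authors from 0.5 µg of RNA, per the labels' protocols. Feature Extraction (Agilent) wrote the scanner files, in version 11.0.1.1 per the file headers and 9.1 per the submitters' processing notes. Each deposited scanner file gives a processed intensity, with background subtracted and no scaling across arrays. In the deposited value table this intensity is divided by 1 number per array. All 6 arrays share 1 slide and 1 scan. Flags in the deposited files mark spots that are unusable or well above background.

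Unusable spots were dropped, spots of a probe averaged as log2 values, and 55371 probes used. Genes were named through RefSeq accessions (58.3% of probes). The other probes kept the array's own sequence name, which stood for a gene in the counts and shares over all genes. A gene entered if well above background on both arrays of a group. Bright genes (mean log2 of at least 8) were quantile-normalised and fitted with limma 3.58.1 in R 4.3.3 (lmFit, eBayes, 3 groups together, 3 residual degrees of freedom). The p-values were adjusted by Benjamini-Hochberg over all 8582. The labels do not say whether arrays came from separate animals, so p-values measure the spread between these arrays. The fit was also run on data simulated with independent noise. These lacked the differences in weak probes seen on the arrays, so the effect of those differences was not tested.

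Settings tried besides were the scaling, the background correction, the minimum, the probe rule, blocks and left-out arrays. A sign change between values that both miss the threshold with intervals including 0 was not counted as a reversal. Members, gene lists and settings were chosen with earlier results of these data known. All members are named, and up to 4 genes past the threshold from each other list, or the 2 with the smallest p, of which some are not described. A planned grouping by ER retention tail was not run, since protein sequences were not used here. Same-numbered arrays did not deviate together (correlations of 0.02, -0.20 and 0.03), so numbers were not taken as pairs. Coordinates are those of the promoter table.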

Additional observations from a re-analysis of the deposited data

How the results depend on the processing

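Between Irf4 KO IgG and WT, the number of members past the threshold was 1. It was 0 with normexp background, the bright-gene median, cyclic loess, the slide row as a block, a replicate block or the 4 arrays compared alone. A minimum of 9, or of 10, which was added after seeing the data, also gave 0. Sdf2l1 averaged 8.60, so these minimums left it out and could not test its call. The number was 2 with the mean of a gene's probes (Sdf2l1 lower, Dnajb11 higher) and 25 with all genes scaled by the 75th percentile. The bright probes of Dnajb11 were both lower taken singly, at -0.24 and -0.45, and its remaining probe was not bright. The rise of its mean is therefore not seen at its bright probes. Leaving out 1 array at a time gave 0 to 0 members, and 6 to 91 calls over all bright genes in place of 160. The median of the members was -0.09, moved to -1.21 with all genes, -0.26 with the bright-gene median, -0.0452 with cyclic loess and -0.0177 with the mean of probes, and ran from -0.12 to -0.06 without 1 array. Between blockade and Irf4 KO IgG the count was 0, and ran from 0 to 0 without 1 array. It became 24 with all genes and 1 with the bright-gene median (higher) or the mean of probes (Dnajb11 lower, its bright probes at -0.05 and 0.01). The median of 0.03 in this comparison became 1.15 with all genes, 0.28 with the bright-gene median and 0.0797 with the minimum of 10. It ran from 0.0315 to 0.113 without 1 array. Between blockade and WT the count stayed 0 in every setting run, and the median of -0.02 became -0.0694 with all genes and -0.064 with a minimum of 7, and ran from -0.0913 to 0.027 without 1 array.

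With all genes scaled, signs turned between Irf4 KO IgG and WT for Hspa5 (-1.23), Pdia4 (-0.63), Creld2 (-0.97), Herpud1 (-0.89), Syvn1 (-0.81), Sel1l (-0.68) and Ppp1r15a (-0.22). Between blockade and Irf4 KO IgG they turned for Pdia4 (0.89), Dnajb11 (1.06), Creld2 (1.098), Herpud1 (1.02), Syvn1 (0.79), Sel1l (0.52), Xbp1 (1.04) and Ppp1r15a (0.0163). With the mean of probes, Dnajb11 (1.01) and Sec61a1 (0.88) turned between Irf4 KO IgG and WT, and Sec61a1 (-0.96) between blockade and Irf4 KO IgG. The cause was not tested. Of 1431 member values under other settings, 1366 kept their side of the threshold, 35 passed it anew, 12 no longer passed and 18 reversed. Among the 1366, 62 changed sign while missing the threshold. The replicate block gave 0 members in all 3 comparisons and 23 calls over all bright genes between Irf4 KO IgG and WT, and same-numbered arrays did not deviate together, so it is not read as pairing. With 2 arrays a group, spread between arrays and weak signal on 7 members limit what can be seen.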
